A study of Rattus norvegicus with 12 samples.

Results

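S100a8, S100a9, Csf3r, Lyz2 and Plac8 were followed across 12 rat RNA-seq libraries of thalamus and rostral ventral medulla (RVM), as 5 of the 34525 genes in the deposited table. They were picked by name, each taken at its row of the table, and the names were chosen by their measured values: earlier results of these data, in which these genes stood high in CFA thalamus, were known. Their CFA-against-saline values in thalamus are therefore given as a description, with no test. The RVM values were known as well.

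S100a8 and S100a9 encode the small calcium-binding subunits of calprotectin, a heterodimer stored in the cytosol of neutrophils and monocytes. Once released, calprotectin withholds zinc and manganese from microbes and signals through Toll-like receptor 4. Csf3r encodes the receptor for granulocyte colony-stimulating factor (G-CSF), which drives the growth and survival of neutrophils, and Lyz2 encodes lysozyme, which cuts the peptidoglycan wall of bacteria and is a standard marker of macrophages and neutrophils. Plac8 encodes a small cysteine-rich protein found in myeloid and lymphoid cells. In healthy brain tissue microglia are the main resident myeloid cells, and calprotectin is scarce there.

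The study concerned rats with chronic orofacial pain. The groups were thalamus of rats given CFA, thalamus of rats given 0.9% NS (saline), RVM of rats given CFA and RVM of rats given saline, with 3 libraries of total RNA each. The labels give CFA by its letters only and state no dose, injection site, time, strain, sex or age, nor whether each library came from a separate animal, so errors and p-values measure the spread between these libraries. The protocol text speaks of retinas, whereas the retinal gene Rcvrn (recoverin) reached at most 0.233 FPKM in any library. The thalamic gene Tcf7l2 ranged over 28.9 to 130.0 FPKM in thalamus and 1.31 to 2.10 FPKM in RVM, and the hindbrain gene Hoxb5 over 0 to 0.0392 FPKM in thalamus and 9.001 to 17.995 FPKM in RVM, as the tissue labels state.

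FPKM are fragments scaled by gene length and library size, so levels can be set beside each other between genes. Each library held 14944794 to 19243108 reads. A gene at 0 had 0 reads, though by counting error its expected number could still have been up to 3 reads. That limit is 0.156 to 0.201 CPM (reads scaled to library size). Some libraries stood apart. Thalamus CFA libraries 1 and 2 carried 10356 and 2478 FPKM summed over 10 choroid plexus genes, against 17.2 FPKM in thalamus CFA library 3 and 5.98 to 30.3 FPKM in thalamus saline. RVM CFA library 2 had the highest sum of red blood cell genes, 2258 FPKM, against 1069 to 1444 FPKM in RVM saline. Its microglial sum was the lowest of its group, 179 FPKM against 353 and 290.4 FPKM in RVM CFA libraries 1 and 3. That sum was just above the RVM saline range of 152 to 169 FPKM. The members' CFA-against-saline differences within each region and the list counts that rest on these libraries are also given without them. The members' RVM read ratios and correlations are also given without RVM CFA library 2. The thalamus read ratios and the correlations were not computed without thalamus CFA libraries 1 and 2.

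The calprotectin genes were near the limit of detection in saline rats and clearly measured in CFA rats. S100a8 (ENSRNOG00000011557, chromosome 2, 190073815 to 190074354, plus strand) had 10.6, 2.185 and 7.98 FPKM in the thalamus CFA libraries, against 0, 0.331 and 0.160 FPKM in thalamus saline. In RVM it had 2.35, 2.17 and 2.23 FPKM in CFA libraries, against 0.819, 1.14 and 0.480 FPKM in saline libraries. Every CFA library stood above every saline library of its region. The thalamus CFA group was the most spread, with library 2 at the level of the RVM CFA libraries. The depth behind these values was small, 76, 14 and 50 reads in thalamus CFA against 0, 2 and 1 in thalamus saline, and 16, 15 and 14 reads in RVM CFA against 5, 6 and 3 in RVM saline.

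S100a9 (ENSRNOG00000011483, chromosome 2, 190097554 to 190100276, minus strand) lies 23199 bases beyond S100a8 with 0 listed genes between them. These positions are as deposited, in a table that names no genome build. S100a9 had 18.7, 4.46 and 14.9 FPKM in thalamus CFA, against 0.286, 0.354 and 0.343 FPKM in thalamus saline. In RVM it had 2.10, 2.27 and 5.68 FPKM in CFA libraries, against 0, 0.136 and 0.571 FPKM in saline libraries. The CFA and saline libraries did not overlap in either region, and thalamus CFA library 2 was again the lowest of its group. The S100a9 reads numbered 188, 40 and 131 in thalamus CFA against 3, 3 and 3 in thalamus saline, and 20, 22 and 50 in RVM CFA against 0, 1 and 5 in RVM saline.

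The subunits kept nearly the same proportion in CFA thalamus, where S100a9 stood at 1.77, 2.04 and 1.87 times S100a8 in FPKM. In RVM CFA the ratio was more spread, at 0.893, 1.05 and 2.55. The ratios in saline libraries rest on 6 reads or fewer of each gene and are not compared.

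The 250 bases before the start of S100a9 and of Lyz2 are printed because these genes stand for calprotectin and for the member with the highest level. They are from RefSeq (GRCr8), 5′ to 3′ in the direction of the gene, S100a9 at chr2:178490623-178490872 (minus strand) and Lyz2 at chr7:54798012-54798261 (minus strand), with matches to the motifs searched in capitals.
S100a9: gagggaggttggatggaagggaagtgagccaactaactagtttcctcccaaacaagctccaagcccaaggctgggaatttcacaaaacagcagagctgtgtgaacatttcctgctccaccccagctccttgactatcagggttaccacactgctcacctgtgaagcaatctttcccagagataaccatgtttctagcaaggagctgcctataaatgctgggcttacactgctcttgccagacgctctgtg
Lyz2: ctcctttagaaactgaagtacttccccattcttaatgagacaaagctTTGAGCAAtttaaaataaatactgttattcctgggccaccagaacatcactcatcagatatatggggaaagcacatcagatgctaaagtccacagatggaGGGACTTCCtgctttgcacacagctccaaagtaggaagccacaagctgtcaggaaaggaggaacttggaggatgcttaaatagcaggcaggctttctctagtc
Searched on both strands, the C/EBP motif TTGCNNAA, found in 9.20% of the 27457 promoters of this length, and the NF-kB motif GGGNNTTCC, in 5.16%, each matched once in the Lyz2 stretch, at 203 to 196 and 103 to 95 bases before the start. The PU.1 motif GAGGAAGT (2.04% of promoters), the STAT motif TTCNNNGAA (7.52%) and the AP-1 motif TGANTCA (6.36%) had no match there. The stretches of S100a9, Csf3r and Plac8 held none of the 5 motifs. For S100a8 no promoter sequence was at hand, so it was not searched. These are letter matches, not measured binding.

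Csf3r (ENSRNOG00000008759, chromosome 5, 144031402 to 144051600, plus strand) had 6.04, 5.14 and 4.64 FPKM in thalamus CFA, against 0.920, 0.715 and 0.752 FPKM in thalamus saline. In RVM it had 3.36, 1.05 and 3.97 FPKM in CFA libraries, against 1.31, 0.910 and 0.884 FPKM in saline libraries. The thalamus groups were well apart, whereas in RVM CFA library 2 fell inside the saline range. As its transcript is long, the receptor was read more deeply than calprotectin, with 316 to 470 reads per CFA library of thalamus and 47 to 75 per saline library. Its ligand gene Csf3 had 0.937, 0.228 and 0.419 FPKM in thalamus CFA, against 0.117, 0 and 0 FPKM in thalamus saline, and was listed at 0 in all RVM libraries.

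Lyz2 (ENSRNOG00000005825, chromosome 7, 60335969 to 60341264, minus strand) had the highest level of the 5 genes in every library. It had 584, 620.5 and 534 FPKM in thalamus CFA, where it ranked 49, 50 and 70 from the top among all genes, against 36.8, 21.8 and 21.1 FPKM in thalamus saline. In RVM it had 143, 50.4 and 170.1 FPKM in CFA libraries, against 44.5, 32.0 and 31.1 FPKM in saline libraries. The groups did not overlap in either region, but RVM CFA library 2 was close to the highest saline library. Lysozyme was thus the one member with a substantial level in saline brain.

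Plac8 (ENSRNOG00000002217, chromosome 14, 10692764 to 10714524, plus strand) had 44.1, 56.5 and 35.4 FPKM in thalamus CFA, against 0.617, 0.255 and 0.330 FPKM in thalamus saline. In RVM it had 80.3, 6.83 and 53.5 FPKM in CFA libraries, against 0.505, 0 and 0.494 FPKM in saline libraries. Both regions showed a wide gap between groups. RVM CFA library 1 was above the thalamus CFA range and RVM CFA library 3 inside it. RVM CFA library 2 was far below its group but above every saline library.

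**Figure D1:**
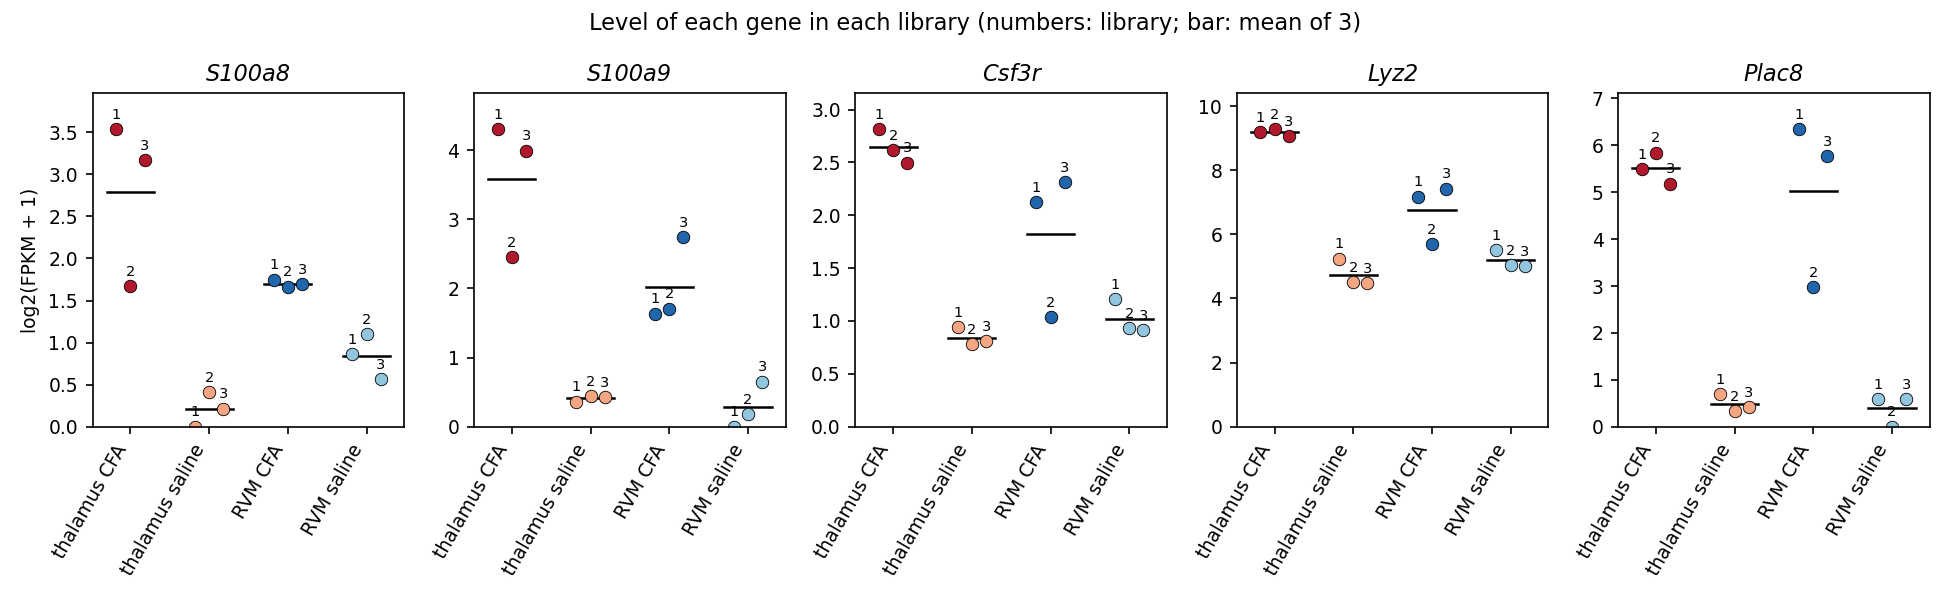
Level of each gene as log2(FPKM + 1) by library, with numbers naming the library and a bar at the mean of 3 libraries. S100a8 and S100a9 were lowest among thalamus CFA libraries in library 2, while Csf3r, Lyz2 and Plac8 were lowest among RVM CFA libraries in library 2.

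In thalamus the mean levels were 6.93 ± 4.31 FPKM in CFA and 0.164 ± 0.165 FPKM in saline for S100a8, and 12.7 ± 7.40 and 0.328 ± 0.0368 FPKM in CFA and saline for S100a9 (SD, n = 3 each). They were 5.27 ± 0.707 and 0.796 ± 0.109 FPKM for Csf3r, 579 ± 43.5 and 26.6 ± 8.87 FPKM for Lyz2, and 45.3 ± 10.6 and 0.401 ± 0.191 FPKM for Plac8, in CFA and saline in that order (SD, n = 3 each). The differences exceeded the SD of both groups for all 5 genes.

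Summed over a group's libraries, the reads in CFA thalamus over saline thalamus, each scaled to library size, gave a ratio of 52.6 for S100a8, with a 95% exact counting interval of 17.6 to 258, from 140 against 3 reads. The ratio was 44.996 (23.4 to 99.2) for S100a9, 7.46 (6.35 to 8.80) for Csf3r, 24.0 (22.9 to 25.2) for Lyz2 and 123 (75.7 to 216) for Plac8. These intervals cover counting error only. The ratio was smallest for Csf3r. The intervals of Plac8, S100a8 and S100a9 overlapped one another, and that of Lyz2 overlapped those of the calprotectin genes.

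As log2(FPKM + 1), where changes of weakly expressed genes come out too small, limma gave a thalamus difference of 2.58 ± 0.48 for S100a8, 3.17 ± 0.47 for S100a9, 1.80 ± 0.14 for Csf3r, 4.44 ± 0.22 for Lyz2 and 5.03 ± 0.19 for Plac8 (log2, SE). All 5 were among the genes called higher (Benjamini-Hochberg adjusted p under 0.05), which were 3.84% of 14722 genes tested, with 4.11% called in either direction. All 5 had every CFA library above every saline library, as did 12.2% of tested genes. Nothing is read from these counts, since the members were chosen on this contrast. S100a8, S100a9, Csf3r and Plac8 passed the filter of a mean of 1 FPKM only through their CFA levels.

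Setting CFA library 3, which was low in choroid plexus genes, alone against the 3 thalamus saline libraries gave log2 differences of 2.96 ± 0.29 for S100a8, 3.59 ± 0.21 for S100a9, 1.65 ± 0.22 for Csf3r, 4.32 ± 0.36 for Lyz2 and 4.71 ± 0.24 for Plac8 (SE). The lone CFA library is assumed there to vary as the saline libraries do. The levels of the 5 genes were thus about as high in the CFA library with little choroid plexus transcript as over all 3. A bulk library cannot tell fewer cells of a type from less RNA per cell.

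In RVM none of the 5 genes passed limma's test with Benjamini-Hochberg adjustment over all genes, under which 0% of 14289 genes were called (2030 had an unadjusted p under 0.05, and limma-voom on the recovered reads also called 0). S100a8, S100a9 and Plac8 averaged under 1 FPKM in RVM saline and entered this fit only through their CFA levels. The log2 difference was 0.86 ± 0.16 for S100a8 and 1.75 ± 0.33 for S100a9 (SE, limma adjusted p = 0.242 for both). It was 0.81 ± 0.33 for Csf3r (limma adjusted p = 0.344), 1.57 ± 0.44 for Lyz2 (limma adjusted p = 0.247) and 4.64 ± 0.82 for Plac8 (limma adjusted p = 0.242). Every CFA library was above every saline library for 4 of the 5 genes, Csf3r being the exception, beside 7.27% of tested genes.

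The mean RVM levels were 2.25 ± 0.0956 FPKM in CFA and 0.813 ± 0.330 FPKM in saline for S100a8, and 3.35 ± 2.02 and 0.236 ± 0.299 FPKM in CFA and saline for S100a9 (SD, n = 3 each). They were 2.79 ± 1.54 and 1.03 ± 0.240 FPKM for Csf3r, 121 ± 62.7 and 35.9 ± 7.51 FPKM for Lyz2, and 46.9 ± 37.2 and 0.333 ± 0.289 FPKM for Plac8, in CFA and saline in that order (SD, n = 3 each). The ratio of summed library-scaled reads in CFA over saline, with its 95% counting interval, was 2.92 (1.58 to 5.76) for S100a8, 13.9 (6.16 to 39.0) for S100a9, 2.73 (2.32 to 3.22) for Csf3r, 3.42 (3.26 to 3.60) for Lyz2 and 137 (78.1 to 265) for Plac8. Plac8 stood apart from the other members in RVM by its ratio, which was as large as in thalamus.

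The RVM calls depended on a single library. Without RVM CFA library 2, limma called 484 genes, and 2.78% of 14264 genes were called higher. Lyz2 then rose by 2.11 ± 0.17 (log2, SE, limma adjusted p = 0.00337) and Csf3r by 1.1998 ± 0.1582 (limma adjusted p = 0.0159). S100a8, at 0.88 ± 0.20 (limma adjusted p = 0.0832), and S100a9, at 1.91 ± 0.37 (limma adjusted p = 0.0572), did not pass. S100a8 and S100a9, like Plac8, entered this fit only through the CFA libraries, so the values of these genes are descriptions. The Plac8 log2 difference was 5.67 ± 0.25 (SE). As the RVM values were known when the genes were chosen, these calls are not independent evidence. The ratio of scaled reads without that library was 3.01 for S100a8, 16.4 for S100a9, 3.66 for Csf3r, 4.51 for Lyz2 and 201 for Plac8. That the library's sum of red blood cell genes was the highest and its microglial sum the lowest of its group was measured, and the part of either in the result was not tested.

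**Figure D2:**
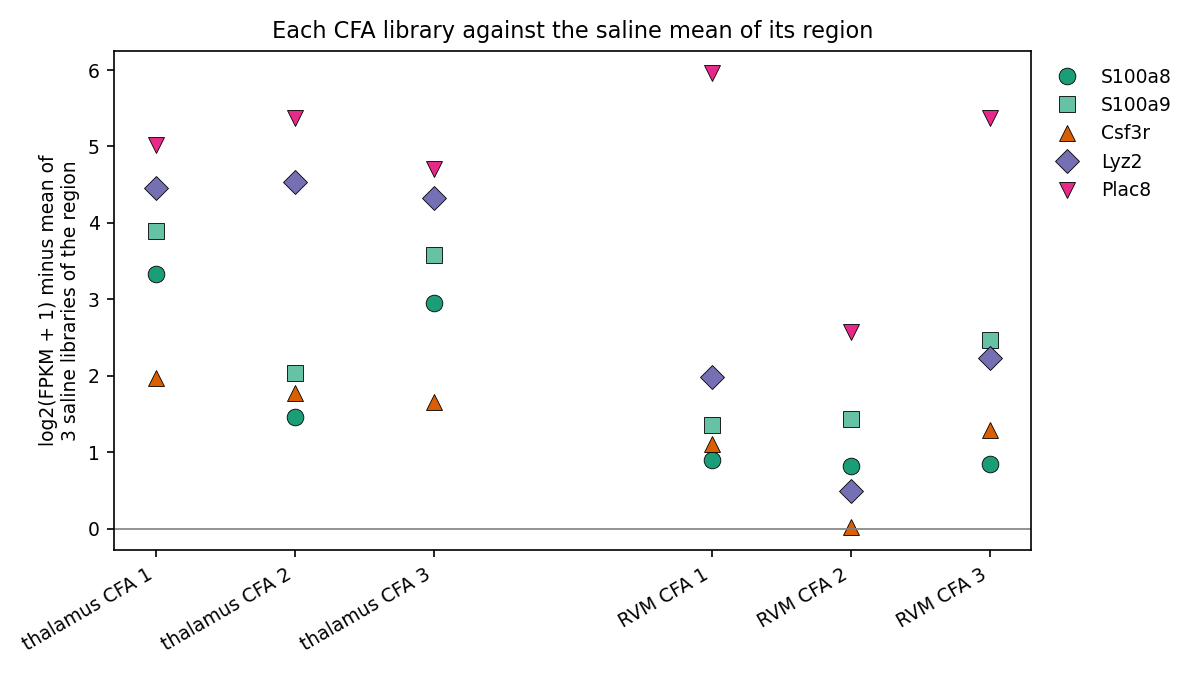
Each CFA library's log2(FPKM + 1) minus the mean of the 3 saline libraries of its region, for each gene. RVM CFA library 2 stood at 0.02 for Csf3r, 0.50 for Lyz2 and 2.58 for Plac8, below the other RVM CFA libraries, and at 0.82 for S100a8 and 1.43 for S100a9, close to at least one of them.

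The difference between the thalamus effect and the RVM effect of CFA, as the region-by-treatment term, is a description for these genes because it holds the thalamus contrast. It was 2.87 ± 0.54 for Lyz2, 1.73 ± 0.54 for S100a8, 1.42 ± 0.62 for S100a9, 1.00 ± 0.39 for Csf3r and 0.39 ± 0.94 for Plac8 (log2, SE, positive where the thalamus effect was larger). The Plac8 value was within its SE and was -0.64 without RVM CFA library 2. The order of the other 4 depends on the scale, since limma-voom on the recovered reads gave 3.63 for S100a8, whereas Lyz2 stayed within 2.87 to 3.03 over the settings that kept all libraries. Over all genes limma called 0% of 13738 for this term, with 1560 at an unadjusted p under 0.05.

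In saline rats Lyz2 was far above the rest in both regions and Csf3r came next, while S100a8, S100a9 and Plac8 averaged under 1 FPKM. Lyz2 averaged 26.6 ± 8.87 FPKM in thalamus and 35.9 ± 7.51 FPKM in RVM (SD, n = 3 each), a log2 difference of -0.44 ± 0.24 (SE, limma adjusted p = 0.174), in a comparison in which 45.3% of 14396 genes were called in either direction. Without thalamus saline library 1 it passed, at -0.69 ± 0.16 (SE, limma adjusted p = 0.0134). The other 4 averaged under 1 FPKM over these libraries and were not tested there. With no filter on low values, S100a8 was lower in thalamus by a log2 difference of -0.63 ± 0.17 (SE, limma adjusted p = 0.0378), which rests on 3 reads in thalamus and 14 in RVM. S100a9, Csf3r and Plac8 had log2 differences of 0.13, -0.18 and 0.09 in that fit (limma adjusted p = 0.608, 0.363 and 0.768 for the 3 genes in that order).

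After taking out the group means, Csf3r and Lyz2 had a Pearson correlation of 0.94, Csf3r and Plac8 of 0.91, and Lyz2 and Plac8 of 0.88. S100a8 and S100a9 had 0.72 with each other, whereas S100a8 had 0.08, -0.10 and -0.15 with Csf3r, Lyz2 and Plac8, and S100a9 had 0.27, 0.12 and 0.04 with them. These are descriptions over 12 libraries with no test. The first 3 rest largely on RVM CFA library 2, the lowest of its group for Csf3r, Lyz2 and Plac8. Without it they were 0.72, 0.21 and 0.38 over 11 libraries in the same order, and S100a8 and S100a9 had 0.73. The correlation of S100a8 with S100a9 rests largely on thalamus CFA library 2, the lowest of its group for both genes. It was not computed without that library. Over these 11 libraries S100a8 had 0.13, -0.25 and -0.59 with Csf3r, Lyz2 and Plac8. S100a9 had 0.17, -0.15 and -0.58 with them.

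The proportion of Plac8 to Lyz2 also differed by group. The FPKM of Lyz2 was 13.2, 10.98 and 15.1 times that of Plac8 in thalamus CFA, against 59.7, 85.6 and 64.1 times in thalamus saline. It was 1.78, 7.38 and 3.18 times in RVM CFA, against 88.1 and 62.9 times in the RVM saline libraries with any Plac8 read. The ratio was lower in every CFA library than in any saline library, and lower in every RVM CFA library than in any thalamus CFA library. The saline ratios are imprecise, as they rest on 9, 3 and 4 Plac8 reads in thalamus and 6, 0 and 6 in RVM. These ratios, like the next, were chosen after the values were seen and have no test.

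Beside Csf1r, the microglial and macrophage growth factor receptor, Lyz2 stood at 5.92, 7.33 and 6.60 times its FPKM in thalamus CFA, against 1.24, 0.813 and 0.834 times in thalamus saline. In RVM the ratio was 1.54, 1.28 and 2.12 in CFA, against 1.45, 1.15 and 1.10 in saline. The thalamus groups were apart and the RVM groups overlapped. Plac8 stood at 0.447, 0.668 and 0.437 times Csf1r in thalamus CFA, against 0.0208, 0.00949 and 0.0130 times in thalamus saline. It stood at 0.865, 0.174 and 0.666 times in RVM CFA, against 0.0164, 0 and 0.0176 times in RVM saline. The saline Plac8 ratios rest on the few reads given above.

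The genes whose log2 levels were most like each member's were taken by Pearson correlation over the 12 libraries, from 12265 genes. For S100a8 they were Emp3, Hmox1 and Parvg (0.96 each), and for S100a9 they were Napsa (0.96), Ier3 and Slc37a2 (0.95 each). For Csf3r they were Fgr, Il21r and Nfkb2, for Lyz2 Icam1, Cybb and C5ar1, and for Plac8 Cd74, Gapt and C1qb (0.99 each). The correlations within groups were 0.63 to 0.85 for the calprotectin genes' neighbours and 0.88 to 0.95 for those of the other 3 members. Hmox1 is heme oxygenase, Cybb a subunit of the phagocyte oxidase, C5ar1 the receptor of complement C5a and Cd74 the chain that escorts MHC class II molecules.

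Neutrophil genes other than the members were sparse. Of 20 such genes, 4 were at 0 in all thalamus CFA libraries, 7 in thalamus saline, 6 in RVM CFA and 7 in RVM saline, and the granule protease gene Ctsg and the formyl peptide receptor gene Fpr2 were at 0 in all 12 libraries. The granule gene Mpo (myeloperoxidase) did not exceed 0.0599 FPKM and Elane (neutrophil elastase) 0.163 FPKM. Other genes of the list were near 0 in saline thalamus and higher in CFA thalamus. Cxcr2 averaged 0.702 FPKM in CFA and 0.0127 FPKM in saline. In the same order Mmp8 averaged 0.360 and 0.0151 FPKM, and Retnlg 0.497 and 0 FPKM. Prtn3, Ngp and Ltf averaged lower in CFA than in saline thalamus. The summed level of the list was 10.96 to 20.1 FPKM in thalamus CFA, against 2.58 to 3.58 FPKM in thalamus saline, and 3.21 to 8.46 FPKM in RVM CFA, against 3.14 to 3.17 FPKM in RVM saline. Of the 4 list genes tested in thalamus, 1 of them at 1 FPKM or more in saline, none passed limma's test, with Fcnb (ficolin) at a log2 difference of 1.83 ± 0.39 and Mmp9 (matrix metalloprotease) at 1.51 ± 0.33 (SE, limma adjusted p = 0.0636 and 0.0664).

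Blood monocyte genes summed to 43.9 to 58.3 FPKM in thalamus CFA, against 8.16 to 11.4 FPKM in thalamus saline. Of 6 tested there, 4 rose, of which Itgal and Fgr averaged under 1 FPKM in saline and entered only through CFA, with a median log2 difference of 2.003 over the 6 against -0.08 over all genes. They included the integrin gene Itgal (2.92, limma adjusted p = 0.000836), the kinase gene Fgr (2.03, limma adjusted p = 0.000703) and the integrin gene Itgb2 (2.04, limma adjusted p = 0.00143). In RVM the sum was 36.5, 14.3 and 30.4 FPKM in CFA, against 14.3 to 15.4 FPKM in saline, with 0 of 5 tested genes called, and 3 of 5 without RVM CFA library 2.

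Microglial genes summed to 282 to 333 FPKM in thalamus CFA, against 138 to 158 FPKM in thalamus saline. Of 10 tested, 5 rose in thalamus, including Csf1r (1.65 ± 0.11, SE, limma adjusted p = 0.000941), at a median log2 difference of 0.92 over the list. In RVM 0 of 10 passed, and 5 of 10 without RVM CFA library 2. Border macrophage genes summed to 27.8 to 56.7 FPKM in thalamus CFA, against 10.4 to 12.7 FPKM in thalamus saline, and 3 of 7 tested rose (Folr2, Clec10a and Pf4), Folr2 entering only through CFA. Lymphocyte genes summed to 7.41 to 16.6 FPKM in thalamus CFA, against 0.471 to 0.913 FPKM in thalamus saline, and the 1 gene tested, Cd8a, which entered only through CFA, had a log2 difference of 2.21 (limma adjusted p = 0.0179).

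The choroid plexus sum of thalamus CFA library 3 lay inside the saline range, whereas meningeal sums were above it in all CFA libraries. None of 8 tested genes passed in either list, with median log2 differences of 2.96 and 1.496, and the meningeal sum was 55.8 to 253 FPKM in thalamus CFA, against 14.5 to 41.9 FPKM in thalamus saline. Red blood cell genes summed to 258 to 1136 FPKM in thalamus CFA, against 486 to 969 FPKM in thalamus saline, and 0 of 4 tested genes passed. The part of these other cell types in the members' levels was not tested, apart from the values without the libraries rich in choroid plexus transcripts, given above.

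**Figure D3:**
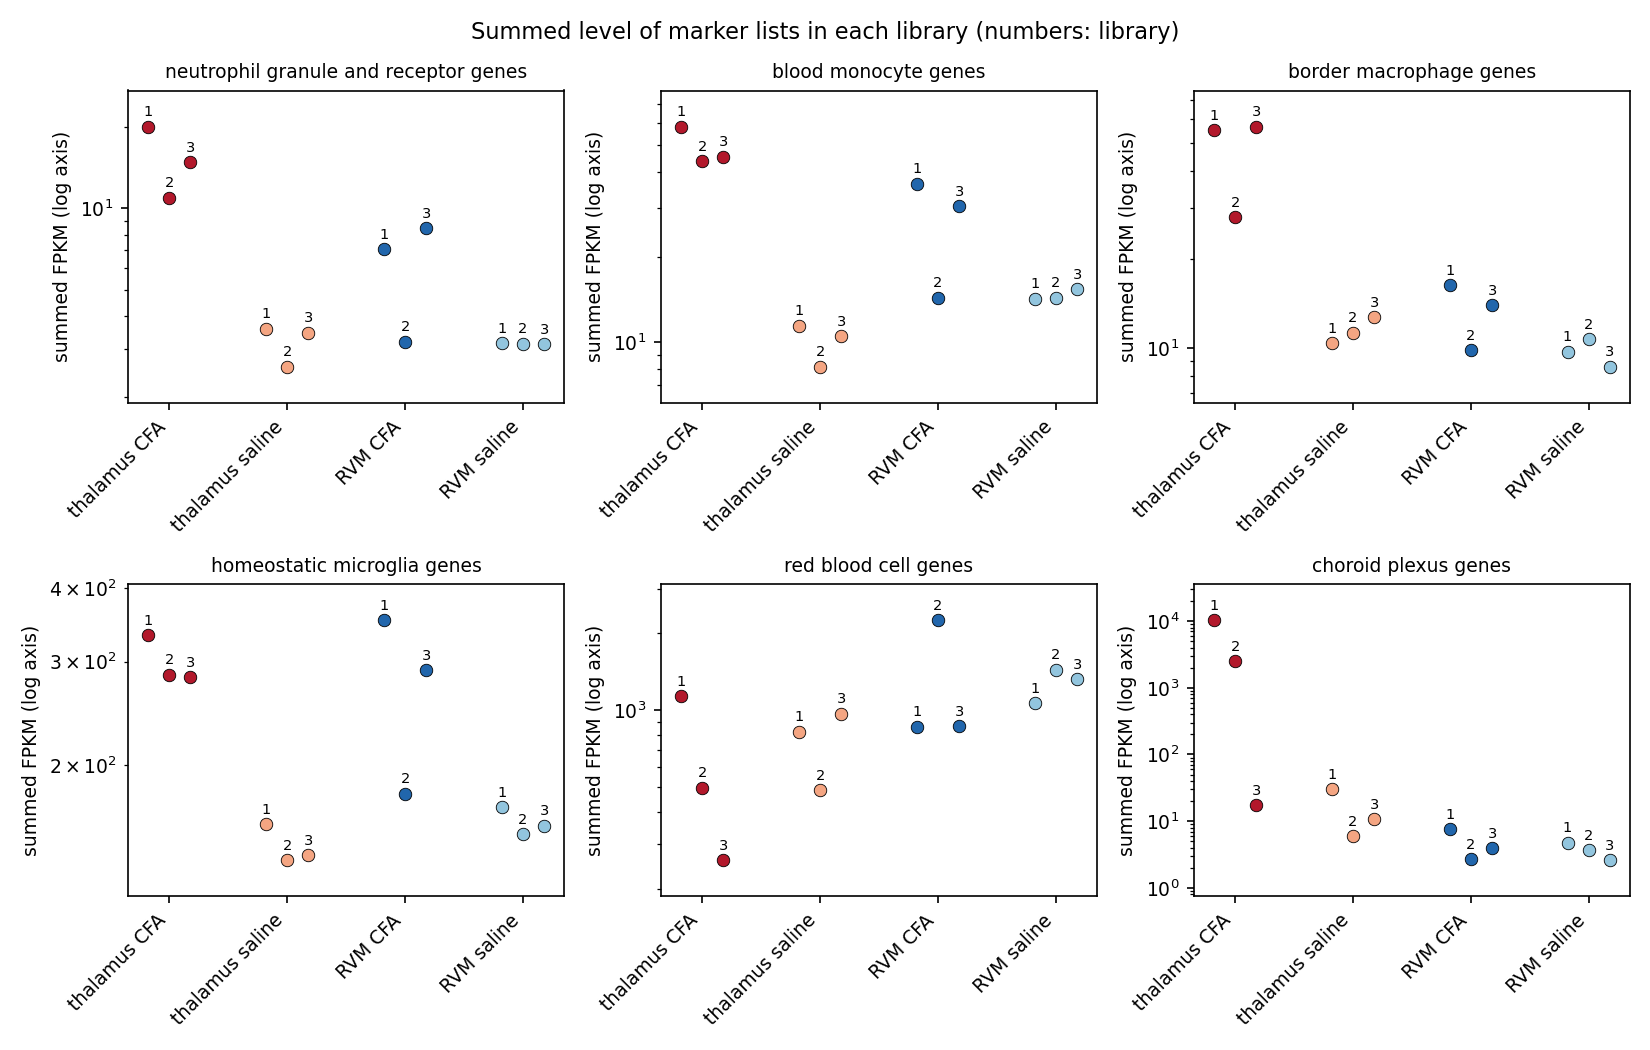
Summed FPKM of marker lists by library on a log axis, with numbers naming the library. The neutrophil sum was highest in thalamus CFA, at 10.96 to 20.1 FPKM, and the choroid plexus sum reached 10356 and 2478 FPKM in thalamus CFA libraries 1 and 2 alone.

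Genes of the calprotectin receptor pathway were followed next. Of 10 listed, 8 were matched and 7 tested in thalamus, and 3 of these rose. Cd14 and Tlr4 averaged under 1 FPKM in saline and entered only through CFA, and of the 4 genes at 1 FPKM or more in saline 1 rose, Myd88. Cd14, the co-receptor of Toll-like receptor 4, averaged 12.7 ± 2.19 FPKM in CFA and 0.690 ± 0.229 FPKM in saline (SD, n = 3 each), a log2 difference of 3.02 ± 0.17 (SE, limma adjusted p = 0.000646). Tlr4 itself rose by 1.19 ± 0.16 (limma adjusted p = 0.0110) and the adaptor gene Myd88 by 1.33 ± 0.19 (limma adjusted p = 0.0150), whereas Lbp, at 2.98 ± 0.67, did not pass (limma adjusted p = 0.0717). In RVM 0 of 6 tested passed, with Tlr4 at 0.68 and Cd14 at 0.88 (limma adjusted p = 0.242 and 0.257). Without RVM CFA library 2, 1 of 6 passed, Myd88 at 0.86 ± 0.12 (limma adjusted p = 0.0171).

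Among genes of G-CSF receptor signalling, 3 of 9 tested rose in thalamus, with a median log2 difference of 0.42. Socs3, the feedback inhibitor of the receptor's JAK and STAT signalling, averaged 20.05 ± 5.39 FPKM in CFA and 1.04 ± 0.201 FPKM in saline (SD, n = 3 each), and rose by 3.34 ± 0.19 (log2, SE, limma adjusted p = 0.000646). The phosphatase gene Ptpn6 rose by 2.23 ± 0.12 (limma adjusted p = 0.000583) and the kinase gene Lyn by 1.46 ± 0.15 (limma adjusted p = 0.00381). Stat3, at 0.62 ± 0.15, did not pass (limma adjusted p = 0.0977). In RVM 0 of 9 passed, with Ptpn6 at 1.496 and Lyn at 0.96 (limma adjusted p = 0.242 and 0.297), and 3 of 9 passed without RVM CFA library 2 (Ptpn6, Lyn and Socs3).

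Among the other colony-stimulating factor genes 4 of 7 tested rose in thalamus, with the shared receptor chain gene Csf2rb at 3.43 ± 0.22 (log2, SE, limma adjusted p = 0.000764), the one of the 4 that entered only through CFA. Of the myeloid transcription factor genes 6 of 8 tested rose, at a median log2 difference of 1.67, with Spi1, which encodes PU.1, at 2.09 ± 0.13 (limma adjusted p = 0.000764) and Irf8 at 2.94 ± 0.21 (limma adjusted p = 0.00127). In RVM 0 of 7 and 0 of 8 tested passed, against 3 of 7 and 6 of 8 without RVM CFA library 2.

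Other secreted antimicrobial proteins included the gene with the largest change among the lists in thalamus. Lcn2, the siderophore-binding lipocalin, averaged 319 ± 53.8 FPKM in CFA and 1.122 ± 0.580 FPKM in saline (SD, n = 3 each) and rose by 7.26 ± 0.24 (log2, SE, limma adjusted p = 0.000182), and all 3 tested genes of the list rose, of which Slpi entered only through CFA. In RVM CFA libraries Lcn2 had 582.9, 12.8 and 369 FPKM, lowest in the same library as Lyz2 and Plac8, and a difference of 5.42 ± 1.32 that did not pass (limma adjusted p = 0.242). Without that library it was 7.11 ± 0.29 (limma adjusted p = 0.001225). Among other S100 genes 3 of 9 tested rose in thalamus, with a list median of 0.47: S100a4 by 3.30 ± 0.48 (limma adjusted p = 0.0145), S100a6 by 2.85 ± 0.33 (limma adjusted p = 0.00626) and S100a11 by 2.44 ± 0.30 (limma adjusted p = 0.00799). S100b, an astrocyte gene, was among the 6 that did not pass. In RVM 0 of 9 passed, and 2 of 9 (S100a6 and S100a11) without RVM CFA library 2.

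Of the 27 list genes named by their p in thalamus and called there, 20 kept the call whichever single library was left out. Without thalamus saline library 2 or library 3, Cd8a, Clec10a, Folr2, Myd88, Pf4, S100a4 and Tlr4 lost it. Clec10a, Pf4 and Tlr4 also lost it without thalamus CFA library 1, Clec10a without CFA library 2, Folr2 and Pf4 without CFA library 3, and Cd8a and Pf4 without saline library 1. Pf4 also lost it with no filter on low values and under limma-voom, and S100a4 under limma-voom. With CFA library 3 alone against saline, a fit of fewer libraries, 7 of the 27 were called (Ptpn6, Socs3, Csf2rb, Csf2ra, Spi1, Lcn2 and Slpi), 18 were not, all with a positive difference, and 2 (Cd8a and Tlr4) had no value under the filter. By list, that fit called 2 of 9 tested G-CSF receptor signalling genes, 2 of 7 other colony-stimulating factor genes, 1 of 8 myeloid transcription factor genes and 2 of 3 antimicrobial genes, and 0 genes of the other lists. The lists were compiled with earlier results of these data known, and no count above is evidence independent of them.

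**Figure D4:**
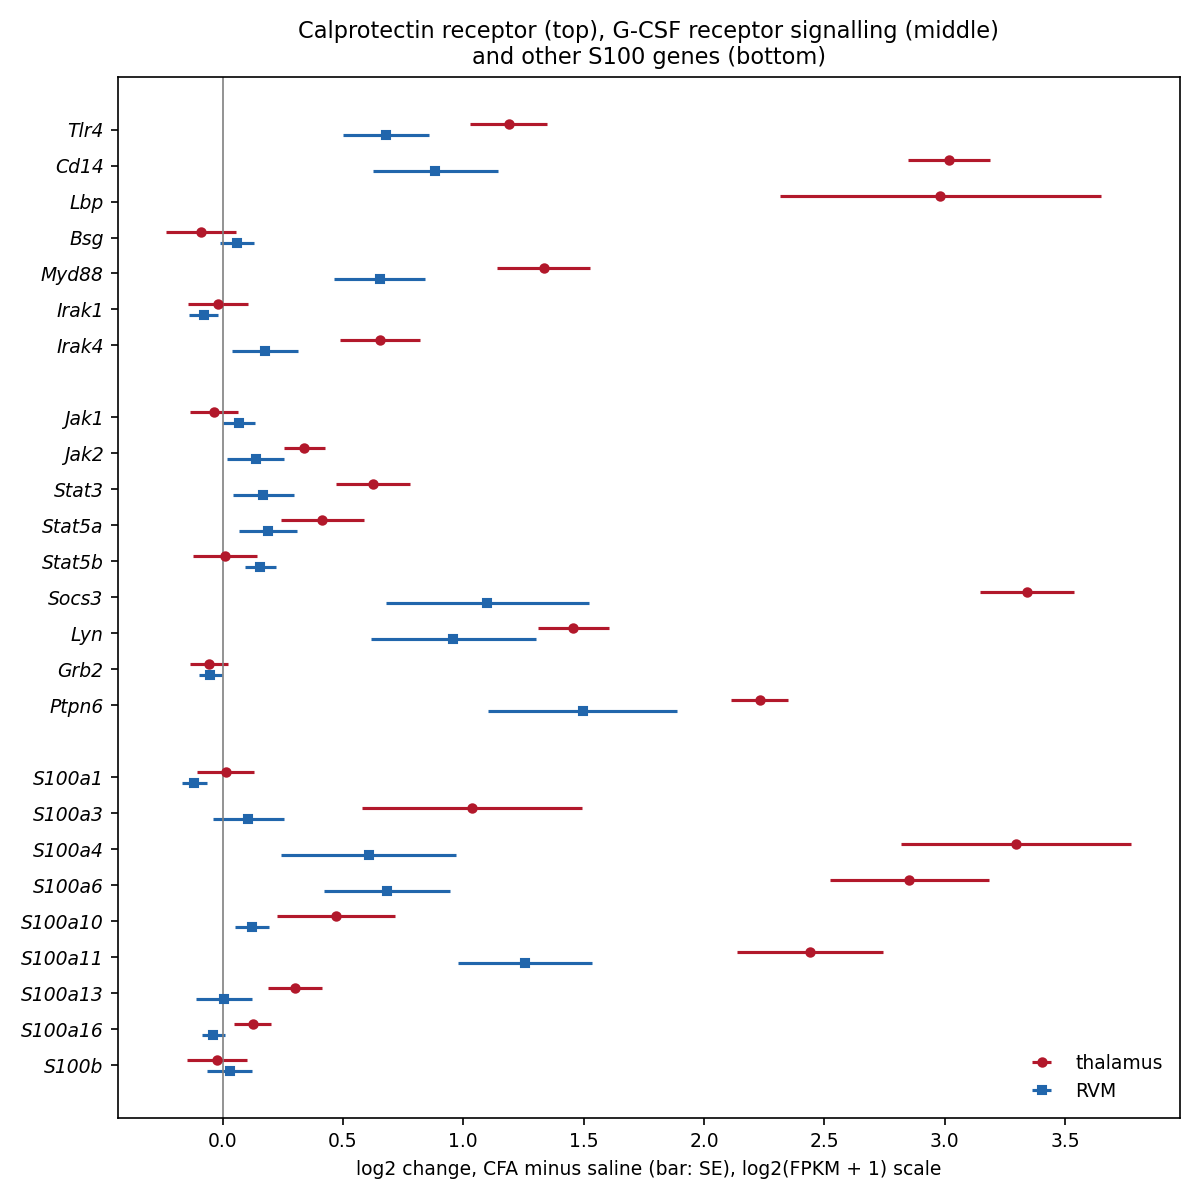
Log2 difference of CFA minus saline on the log2(FPKM + 1) scale, with bars of 1 SE, in thalamus (circles) and RVM (squares), for tested genes of 3 lists. Socs3, S100a4, Cd14 and S100a6 had thalamus differences of 2.85 to 3.34, and Lbp was tested in thalamus only.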

How the data were processed

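Libraries came from a TruSeq kit (Illumina), per the labels' protocols. The authors deposited one table of FPKM values per gene and library, per the file headers. No source used here names the aligner, counter, build or annotation. FPKM times gene length gave whole multiples of one step in 100% of values under 1000 steps (tolerance 0.01), so reads were recovered from them. The total the authors divided by was 1.109 to 1.168 times the recovered reads in thalamus CFA and 0.961 to 1.042 times in thalamus saline, a scaling that no source used here explains. Replicates differed beyond sampling noise (chi-square per degree of freedom 7.44 to 62.3).

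Groups followed the tissue and treatment labels. limma 3.58.1 in R 4.3.3 was run on log2(FPKM + 1) (eBayes, trend) where the mean reached 1 FPKM, and p-values were Benjamini-Hochberg adjusted over all genes tested, with calls under 0.05. The other steps used Python 3.11.15. The script was tested on simulated data. The members and 14 lists (147 symbols, of which 140 matched by name, 1 by synonym and 6 are not analysed here) were chosen with earlier results of these data known. The text names up to 3 genes per list by p in each region and the 3 genes most like each member. It also names Lbp, Stat3, S100b, Csf3, Ctsg, Fpr2, Mpo, Elane, Il1r2, Trem1, Cxcr2, Tcf7l2, Hoxb5 and Rcvrn, chosen after their values were seen. The same holds for Mmp8, Retnlg, Prtn3, Ngp, Ltf, Fpr1, Camp and Padi4. Another pseudocount, filters, scalings, limma-voom, a replicate block, a fit of all libraries and leaving out libraries were tried.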

Additional observations from a re-analysis of the deposited data

How the results depend on the processing

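In thalamus limma called 605 genes (565 higher, 40 lower). The count was 298 with a minimum of 5 FPKM, 1932 with all 12 libraries in the fit, and 66 without thalamus CFA libraries 1 and 2, an alternative chosen after seeing the data. It was 309 to 547 with 1 library left out (394 without CFA replicate 1, 321 and 309 without saline replicates 2 and 3). Apart from the replicate block, other settings stayed within 1.5 times. Rescaling every library to the same total moved the median thalamus difference of all genes to 0.07, against -0.08, and the saline region split to 4559 higher and 2013 lower, against 3250 and 3273. In RVM 1 gene was called with no filter, against 0, and 0 to 484 with a library left out. The difference of effects had 11 genes called with no filter, against 0, and 0 to 15 with a library left out. The Plac8 difference of effects reversed to -0.011 with a pseudocount of 0.1 and -0.037 with limma-voom, and ran over -0.64 to 1.05 with 1 library left out, lowest without RVM CFA replicate 2. Members kept their direction in both CFA contrasts in every alternative, but not their size. Limma-voom, which adds no pseudocount of 1 FPKM, gave thalamus differences of 5.17 for S100a8 (against 2.58), 5.02 for S100a9 (3.17), 2.89 for Csf3r (1.80) and 6.91 for Plac8 (5.03), and 3.63 for the S100a8 difference of effects (1.73). S100a9 in RVM reached 3.98 (1.75). Replicate numbers were not treated as pairs in the main fits. Deviations from the group means correlated between same-numbered CFA and saline libraries at 0.358, 0.0565 and 0.267 in thalamus. In RVM the values were -0.0266, 0.00068 and -0.00765. A replicate block gave 1338 calls in thalamus and 0 for the difference of effects. It also moved the saline Lyz2 region difference past the threshold (limma adjusted p = 0.0205). The cause of these changes was not tested. Few reads limit S100a8, S100a9 and Plac8 in saline libraries.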

Other observations

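Il1r2 and Trem1, receptor genes of the neutrophil list, were lowest among the thalamus CFA libraries in library 2, like the calprotectin genes. They were chosen after their values were seen and have no test. Il1r2, the interleukin 1 decoy receptor gene, had 2.67, 0.368 and 2.84 FPKM in thalamus CFA, against 0, 0 and 0.0420 FPKM in thalamus saline. Trem1, a myeloid activating receptor gene, had 1.54, 0.802 and 2.70 FPKM in thalamus CFA, against 0 in all 3 thalamus saline libraries. Other genes of the list differed, and Fcnb had 5.41, 5.23 and 1.92 FPKM in thalamus CFA.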
